A study of Drosophila melanogaster with 12 samples.

Results

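The mitochondrial chaperones and quality-control proteases described here were 10 nuclear genes of the larval fat body of Drosophila melanogaster, of 17139 genes in the deposited table. They were taken by name: the chaperones Hsp60A, Hsc70-5, Roe1, Trap1 and Hsp22, the protease genes HtrA2, Afg3l2, Spg7 and YME1L, and ClpX, the unfoldase partner of the ClpP peptidase. All 10 were found, with 21 transcripts among them, and all 10 passed the filter of a mean of at least 1 TPM (an abundance per transcript length, scaled so that every library sums to the same total). The authors' table names ClpX by its locus CG4538 and Afg3l2 by CG6512.

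The data were 12 RNA sequencing libraries of total RNA from dissected fat body at 96 h after egg laying. In 6 TFAM RNAi libraries (replicates 3 to 8) the larvae carried an RNAi construct against TFAM under the control of r4-Gal4. In 6 control libraries (replicates 2, 3, 5, 6, 7 and 8) they carried r4-Gal4 crossed to wild type, with no RNAi construct named. Both groups thus carried r4-Gal4, a driver line active mainly in the fat body, the larval organ that stores nutrients and secretes hemolymph proteins. Nothing in the labels tied replicates to separate animals or cultures. The p-values therefore measure spread between libraries that may be technical.

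When proteins misfold inside mitochondria, cells can raise nuclear genes for the chaperones that fold imported proteins and the proteases that remove damaged ones. This mitochondrial unfolded protein response was described in mammalian cells and Caenorhabditis elegans, and transcripts of Hsp60, mitochondrial Hsp70 and matrix proteases are its usual read-outs. TFAM coats mitochondrial DNA and is needed for transcribing it, so its loss can leave nuclear-encoded respiratory subunits without their mitochondrially encoded partners. The comparison asked whether these read-outs differed when TFAM was knocked down in the fat body.

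TFAM, the targeted gene, had 22.1 to 26.9 TPM in TFAM RNAi libraries and 78.5 to 101 TPM in control libraries, with no overlap. Its log2 fold change was -1.88 (SE 0.08, limma adjusted p = 5.16e-09). Fat body markers summed to 32444 to 49538 TPM in TFAM RNAi libraries and 25621 to 57392 TPM in control libraries, but 1 of the 8 markers, Fbp1, was at most 1.49 TPM in any library. Other tissues' markers varied: salivary gland markers reached 1027 TPM in TFAM RNAi 3, against 1.34 to 21.7 TPM in the other TFAM RNAi libraries and 1.90 to 3.93 TPM in control libraries. Muscle markers spanned 312 to 820 TPM in TFAM RNAi libraries and 211 to 2539 TPM in control libraries, the highest being control 2. Gut markers spanned 74.2 to 1067 TPM in TFAM RNAi libraries and 162 to 1646 TPM in control libraries. Hemocyte markers spanned 30.2 to 84.1 TPM in TFAM RNAi libraries and 17.5 to 77.2 TPM in control libraries, and neuron markers 28.9 to 35.4 TPM in TFAM RNAi libraries and 22.5 to 29.1 TPM in control libraries. Of the 4 ring gland markers only sad passed the filter, at no more than 1.74 TPM in TFAM RNAi libraries and 37.7 to 73.6 TPM in control libraries. The ring gland markers phtm, dib and nvd were at most 2.555 TPM in any library, with overlapping groups, so the sad difference rests on 1 gene. The summed levels of the other lists overlapped between groups, but 4 single markers in them were called. The fat body genes Fbp2 (2089 TPM in TFAM RNAi libraries, 142 TPM in control libraries) and Lsd-1 (800 TPM in TFAM RNAi libraries, 1480 TPM in control libraries) did not overlap (limma adjusted p = 2.78e-04 and 2.81e-04). The gut gene betaTry (98.8 TPM in TFAM RNAi libraries, 5.501 TPM in control libraries) and the neuron gene Syt1 (28.4 TPM in TFAM RNAi libraries, 23.2 TPM in control libraries) were called higher (limma adjusted p = 0.00504 and 0.044). The other gut markers, Jon65Aiii, Jon99Ciii, alphaTry and mex1, had log2 fold changes of -0.89, -1.59, -0.26 and -0.15 and were not called. The gut difference thus rests on 1 gene. The part of these differences in the members' values was not tested.

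No member was called higher in TFAM RNAi fat bodies, and 1, Afg3l2, was called lower. A call here is an adjusted p under 0.05 in limma, Benjamini-Hochberg adjusted over all 9951 genes tested, on log2(TPM + 1). Over all genes tested the same rule called 5.75% higher and 13.8% lower, 19.6% in all, so the members' count of 0 higher and 1 lower of 10 was near the background. With quantile normalization the calls over all genes were 961 higher and 1075 lower, against 572 higher and 1377 lower here. Groups overlapped for all 10 members, against 13.3% of all tested genes whose groups did not overlap. The median log2 fold change of the members was -0.10, with 7 of 10 below 0, beside 0.01 over all tested genes; Hsc70-5, Trap1, Roe1 and YME1L turned positive under quantile normalization. For 8 of the 9 uncalled members, all but Hsp22, the 95% intervals together spanned folds of 0.700 to 1.30. Fewer cells of a type and less RNA per cell cannot be told apart in these bulk libraries.

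**Figure D1:**
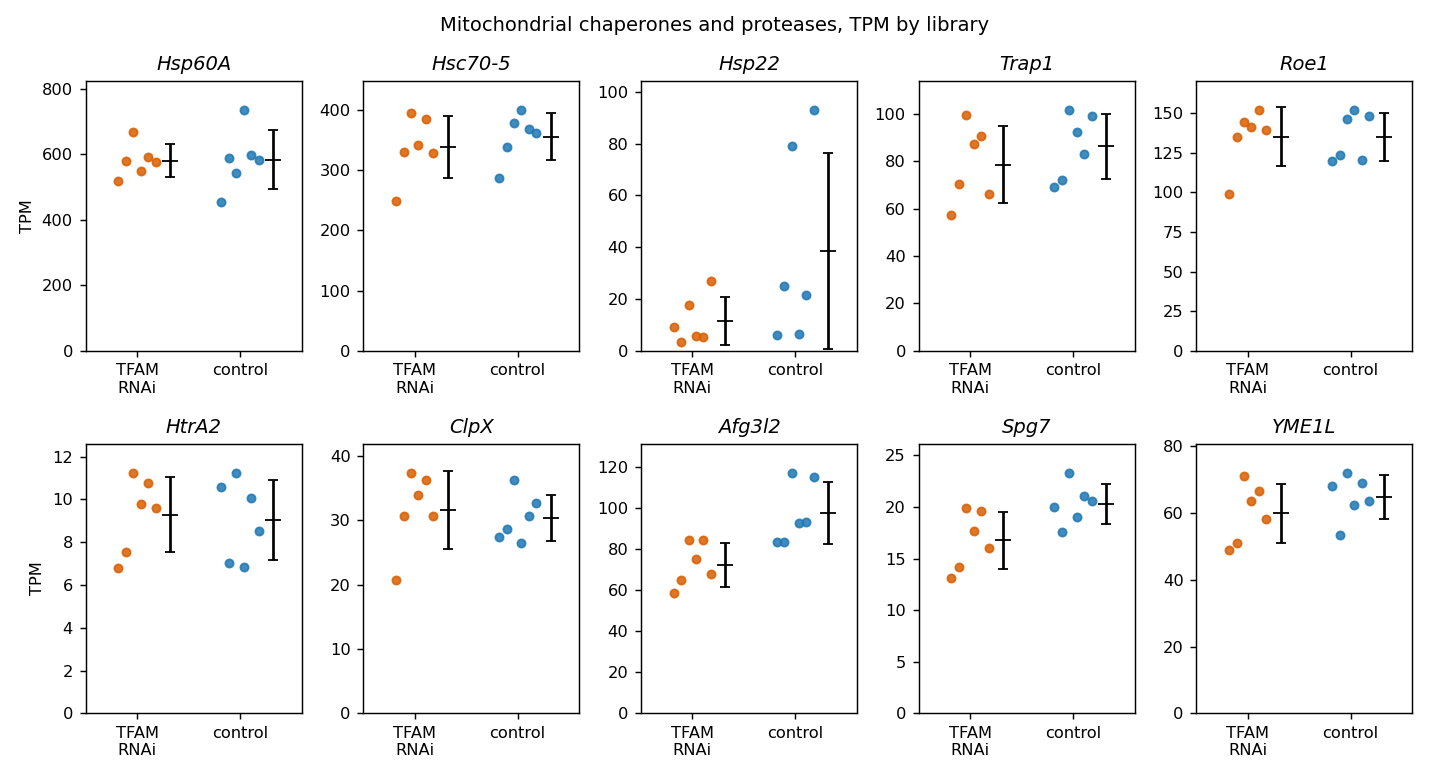
TPM of the 10 members in each of 6 TFAM RNAi (left, orange) and 6 control (right, blue) libraries, points in order of replicate number; the bar is the mean and the whisker ± SD. Group means lie close together for most genes, Afg3l2 is lower in TFAM RNAi libraries (72.6 against 97.7 TPM), and Hsp22 spreads most in controls.

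Hsp60A, the chaperonin that encloses newly imported proteins in the mitochondrial matrix while they fold, was the most abundant member. It spanned 517 to 666 TPM in TFAM RNAi libraries (median 577) and 455 to 735 TPM in control libraries (median 586). The control range enclosed that of the TFAM RNAi libraries, and the lowest and the highest libraries were both controls. The means were 580 ± 50.1 TPM in TFAM RNAi libraries and 583 ± 90.8 TPM in control libraries (SD, n = 6 each). On the log2 scale the fold change was 0.00 with a 95% interval of -0.22 to 0.22 (limma adjusted p = 0.998), which puts a rise above 1.16-fold outside the interval.

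Hsc70-5 is the mitochondrial Hsp70, which pulls precursors through the inner membrane and folds them. It spanned 248 to 395 TPM in TFAM RNAi libraries (median 337) and 287 to 400 TPM in control libraries (median 365). The groups overlapped over most of their range. Its log2 fold change was -0.08 (95% interval -0.33 to 0.17, limma adjusted p = 0.695). Its nucleotide exchange factor Roe1, the fly GrpE protein, had 99.1 to 152 TPM in TFAM RNAi libraries (median 140) and 120 to 152 TPM in control libraries (median 135). Means were equal within error, at 135 ± 18.5 TPM in TFAM RNAi libraries and 135 ± 15.1 TPM in control libraries (SD, n = 6 each). The interval of Roe1's log2 fold change was -0.24 to 0.23.

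Trap1, the Hsp90 of the mitochondrial matrix, had 57.5 to 99.7 TPM in TFAM RNAi libraries (median 78.7) and 69.1 to 102 TPM in control libraries (median 87.8). A log2 fold change of -0.14 was measured (95% interval -0.46 to 0.17, limma adjusted p = 0.576), and the groups overlapped. Its main transcript made up 83.7 ± 2.12% of the gene's TPM in TFAM RNAi libraries and 87.3 ± 1.57% in control libraries (SD, n = 6 each). That share was not tested, and neither Trap1 transcript passed in the authors' deposited table (Wald q = 0.483 and 0.673).

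Hsp22 is a small heat-shock protein that in Drosophila resides in the mitochondrial matrix, and it answers heat and oxidative stress. It was the most variable member, with 3.38 to 26.9 TPM in TFAM RNAi libraries (median 7.46) and 6.17 to 93.0 TPM in control libraries (median 23.2). The top of the control range came from 2 libraries, control 5 with 78.9 TPM and control 8 with 93.0 TPM. The other 4 control libraries had 6.17 to 25.1 TPM, inside the range of the TFAM RNAi libraries. The log2 fold change was -1.31 with an SE of 0.70 (95% interval -2.85 to 0.22, limma adjusted p = 0.255). Without control 5 and control 8 it was -0.41 (limma adjusted p = 0.650).

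Control 5 and control 8 also held the most cytosolic Hsp70 RNA. The 6 stress-inducible Hsp70 genes summed to 80.0 to 217 TPM in TFAM RNAi libraries, and in control libraries to 877 TPM in control 5, 815 TPM in control 8 and 21.7 to 139 TPM in the other 4. Without Hsp70Bb the sums were 11.5 to 101 TPM in TFAM RNAi libraries. In control libraries they were then 693 TPM in control 5, 604 TPM in control 8 and 16.9 to 112 TPM in the other 4. The 5 genes whose log2 values, less their group means, followed Hsp22 most closely over the 12 libraries included 4 of these copies: Hsp70Bc (Pearson r = 0.934), Hsp70Bbb (0.913), Hsp70Aa (0.854) and Hsp70Ab (0.852). The remaining one was Rnf11, a RING finger gene, with r = 0.867. These libraries share 2 outlying controls, so the correlations are a description. The Hsp70 genes are near-identical copies, and how reads were divided among them is uncertain. In control 5 and control 8 Hsp60A had 543 and 583 TPM, inside the range of the other controls. Trap1 was highest of the controls in the same libraries, with 102 TPM in control 5 and 99.0 TPM in control 8, against 69.1 to 92.5 TPM in the other 4.

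**Figure D2:**
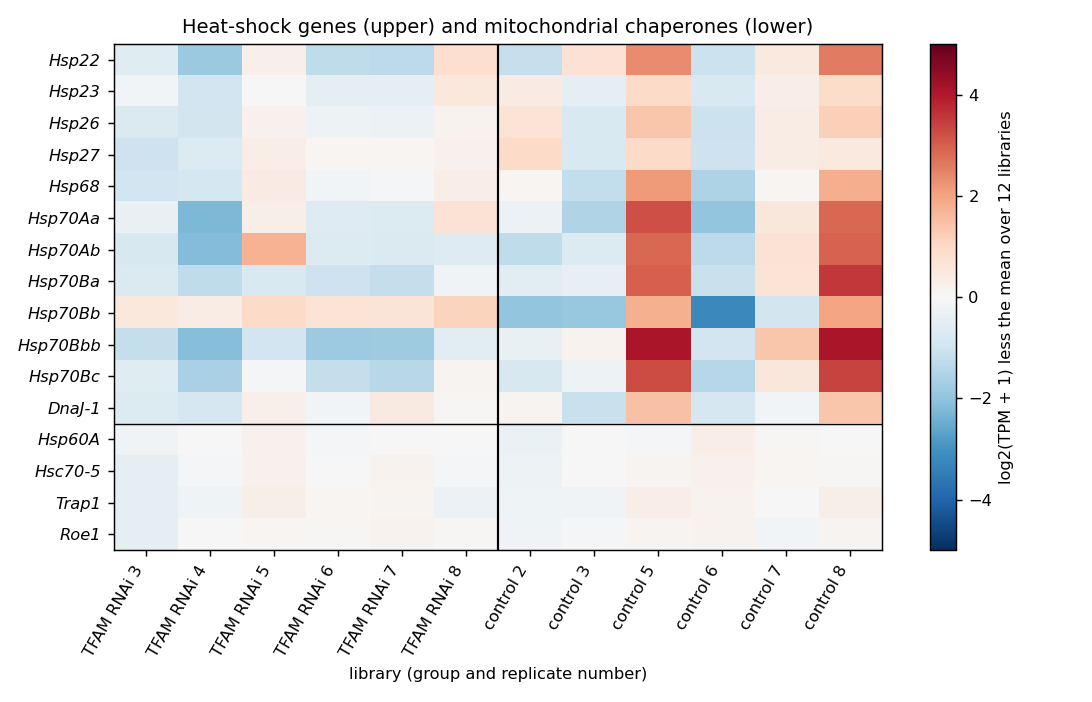
Log2(TPM + 1) less each gene's mean over 12 libraries, for Hsp22 and 11 cytosolic heat-shock genes (upper block) and 4 mitochondrial chaperones (lower block); columns are 6 TFAM RNAi then 6 control libraries. Control 5 and control 8 are above the mean in every upper row, while the lower rows show much paler colours throughout.

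For Hsp60A, the 5 genes closest by the same measure were Ahcy (Pearson r = 0.988), Hex-C (0.958), TyrRS (0.932), SerRS (0.920) and CG42369 (0.904) over 12 libraries. Ahcy encodes adenosylhomocysteinase, Hex-C a hexokinase, and TyrRS and SerRS charge tRNA with tyrosine and serine. The likeness was measured within groups. Between groups Ahcy rose to 782 TPM in TFAM RNAi libraries, against 507 TPM in control libraries (log2 fold change 0.64, limma adjusted p = 6.4e-04), whereas Hsp60A had nearly equal means. Hex-C, TyrRS, SerRS and CG42369 were not called (log2 fold changes of 0.18, 0.05, 0.02 and 0.30, limma adjusted p of 0.55, 0.63, 0.87 and 0.15).

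Afg3l2 and Spg7 encode the subunits of the m-AAA protease, which faces the matrix from the inner membrane, degrades unassembled respiratory subunits and, in yeast and mammals, matures a protein of the mitochondrial ribosome. Afg3l2 had 58.5 to 84.5 TPM in TFAM RNAi libraries (median 71.6) and 83.4 to 117 TPM in control libraries (median 93.1). The 4 lowest values were all TFAM RNAi, and the 2 highest TFAM RNAi libraries just exceeded the lowest controls. The means were 72.6 ± 10.7 TPM in TFAM RNAi libraries and 97.7 ± 15.2 TPM in control libraries (SD, n = 6 each). The fitted log2 fold change was -0.42 (SE 0.12, 95% interval -0.68 to -0.16, limma adjusted p = 0.0237). The call ended without TFAM RNAi 4 (adjusted p = 0.0574), TFAM RNAi 8 (0.0539) or control 5 (0.0525), over a range of 0.0185 to 0.0574 for single libraries left out, and without both control 5 and control 8 (-0.29, adjusted p = 0.1004). It also ended under quantile normalization (-0.19, adjusted p = 0.280) and in an exact permutation test per gene (adjusted p = 0.062).

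The authors' deposited tables hold the same direction for Afg3l2. Of 20 member transcripts with a Wald test in the authors' deposited table, 1 had a q-value under 0.05, the main Afg3l2 transcript, with a coefficient of -0.298 on the natural log scale (SE 0.0977, q = 0.0283). Its second transcript had a coefficient of -0.279 and a q of 0.154 in the authors' deposited table. Afg3l2 was the only member in the authors' deposited list of 1561 genes (likelihood ratio q = 0.0241). The authors' tests are of the same series, so they are not separate evidence. The share of all transcripts or genes that passed them was not computed, so these member counts have no background beside them. The main transcript made up 80.2 ± 2.55% of Afg3l2 TPM in TFAM RNAi libraries and 80.5 ± 2.89% in control libraries (SD, n = 6 each), so the shares were alike within their spread.

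Spg7, the paraplegin subunit, had 13.1 to 19.9 TPM in TFAM RNAi libraries (median 16.9) and 17.6 to 23.3 TPM in control libraries (median 20.3). The groups overlapped, with TFAM RNAi libraries at the low end. Its log2 fold change was -0.27 (95% interval -0.52 to -0.03, limma adjusted p = 0.129). Its unadjusted p was under 0.05, as for 2 members in all, Afg3l2 being the other, against 28.6% of all tested genes.

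YME1L forms the i-AAA protease, which faces the intermembrane space. It had 48.8 to 71.0 TPM in TFAM RNAi libraries (median 60.8) and 53.3 to 72.0 TPM in control libraries (median 65.7), with overlapping groups and a log2 fold change of -0.12 (95% interval -0.35 to 0.11). Its main transcript held 46.0 ± 2.27% of the gene's TPM in TFAM RNAi libraries and 51.1 ± 4.34% in control libraries (SD, n = 6 each; not tested). ClpX, the unfoldase that feeds substrates to the ClpP peptidase in the matrix, had 20.7 to 37.4 TPM in TFAM RNAi libraries (median 32.4) and 26.5 to 36.2 TPM in control libraries (median 29.7). Both extremes of ClpX were TFAM RNAi libraries. The log2 fold change of ClpX was 0.04 (95% interval -0.25 to 0.33, limma adjusted p = 0.881).

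HtrA2, a serine protease of the intermembrane space, was the least abundant member. It had 6.80 to 11.2 TPM in TFAM RNAi libraries (median 9.69) and 6.82 to 11.2 TPM in control libraries (median 9.29). The ranges nearly coincided, and the log2 fold change was 0.04 (95% interval -0.30 to 0.37, limma adjusted p = 0.901).

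By mean level in the 6 control libraries, the order was Hsp60A, Hsc70-5, Roe1, Afg3l2, Trap1, YME1L, Hsp22, ClpX, Spg7 and HtrA2. TPM is per transcript length, so these levels may be set side by side. Hsp60A, Hsc70-5 and Roe1 stood apart from each other and from the rest in every library. Afg3l2 and Trap1 did not differ beyond their spread in either group, Trap1 having the higher mean in TFAM RNAi libraries and Afg3l2 in control libraries. Trap1 was above YME1L in each library, although their ranges over libraries overlapped, and Hsp22 crossed Spg7 and HtrA2 from library to library. Hsp22 was above ClpX in control 5 and control 8 alone, so its place before ClpX in the control order rests on those libraries. In TFAM RNAi libraries the mean of Hsp22 was 11.4 TPM, below the 31.6 TPM of ClpX.

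Library composition moved with the members. TFAM RNAi 3, the library rich in salivary gland markers, was the lowest of all 12 libraries for 8 of 10 members and the lowest of its group for 9. Libraries also differed in how much RNA of long transcripts they held. A long-transcript index was taken per library as the median log2 deviation of 866 genes with a longest transcript of at least 5000 nt, less that of 3426 genes from 1000 to under 2000 nt. It was -0.58 in TFAM RNAi 3 and -0.01 to 0.50 in the other TFAM RNAi libraries, against 0.40 in control 5, 0.35 in control 8 and -0.41 to -0.33 in the other controls. Less their group means over the 12 libraries, the log2 values of Afg3l2 (Pearson r = 0.931), ClpX (0.913), Trap1 (0.844), Roe1 (0.791) and Spg7 (0.788) followed the index, those of Hsc70-5, YME1L, HtrA2 and Hsp22 had r of 0.459 to 0.679, and those of Hsp60A 0.136; these are descriptions of libraries that share their composition. With the index as a covariate, chosen after seeing the data, 3 members were called lower and 0 higher: Afg3l2 (log2 fold change -0.55, limma adjusted p = 2.19e-05), Spg7 (-0.37, 0.00512) and Trap1 (-0.29, 0.0342). The same fit called 18.7% of all tested genes lower and 7.25% higher. Only control 5 and control 8 had an index like that of TFAM RNAi libraries, and the covariate fit was not run without them. The part of composition in the members' differences was otherwise not tested.

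**Figure D3:**
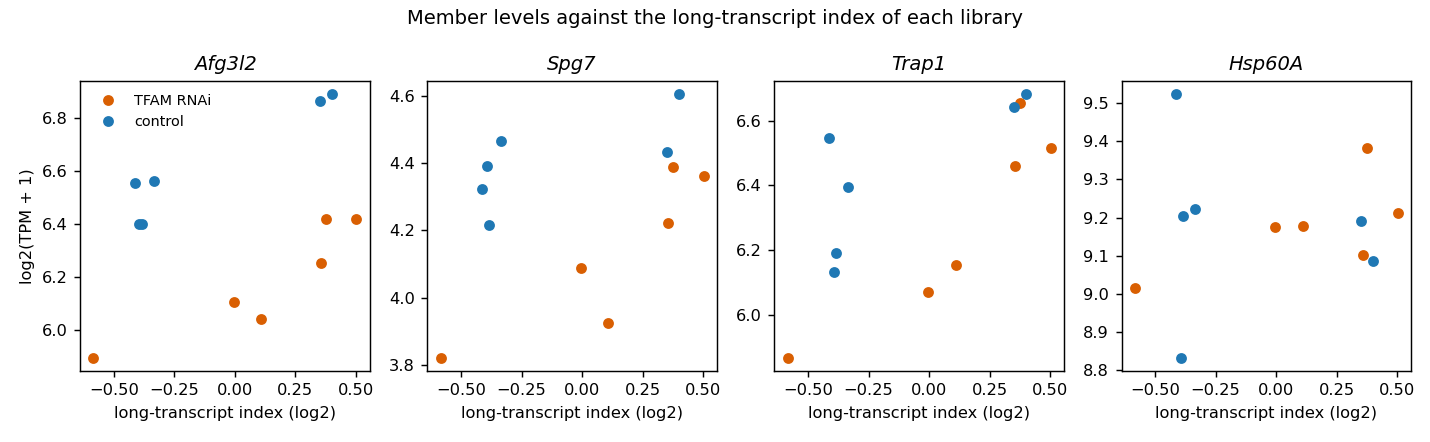
Log2(TPM + 1) of Afg3l2, Spg7, Trap1 and Hsp60A against the long-transcript index (log2) of each library, 6 TFAM RNAi (orange) and 6 control (blue). Afg3l2 is lower in TFAM RNAi libraries than in control 5 and control 8, the only controls of a like index (0.40 and 0.35). No TFAM RNAi library lies among the other controls (-0.41 to -0.33), and TFAM RNAi 3 (index -0.58) is at the lower left of the first 3 panels.

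Ratios of partner genes within a library do not depend on a scaling of the whole library. The 8 ratios were chosen after values had been seen and were compared by an exact permutation test, two-sided, adjusted over the 8; the smallest p that 6 against 6 allows is 0.00216. Afg3l2 was lower relative to YME1L and to Phb2, and its ratio to Spg7 did not pass. These ratios reuse the Afg3l2 values behind its call, so they are not separate evidence for it. Ratios can still follow library composition, as Afg3l2 had r = 0.931 with the long-transcript index and YME1L 0.647, and that part was not tested. Its ratio to YME1L was 1.17 to 1.27 in TFAM RNAi libraries and 1.23 to 1.82 in control libraries (log2 difference -0.31, exact permutation p = 0.00649, adjusted 0.026). Its ratio to Phb2, a prohibitin that forms rings around the m-AAA protease, was 0.139 to 0.188 in TFAM RNAi libraries and 0.183 to 0.264 in control libraries (log2 difference -0.39, exact permutation p = 0.00649, adjusted 0.026). Against its partner Spg7 the ratio was 4.23 to 4.57 in TFAM RNAi libraries and 4.18 to 5.597 in control libraries, and the difference of -0.14 did not pass after adjustment (exact permutation p = 0.0433, adjusted 0.0866). Without control 5 and control 8 the differences were -0.21 for YME1L and -0.26 for Phb2 (exact permutation p = 0.0286 each, unadjusted), and -0.07 for Spg7 (p = 0.19 by the same exact test).

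CG11267, whose synonym in the reference table is Hsp10, is the lid of the Hsp60 chaperonin. It had 899 ± 78.4 TPM in TFAM RNAi libraries and 1030 ± 95.8 TPM in control libraries (SD, n = 6 each; log2 fold change -0.20, limma adjusted p = 0.0954), and it was called lower without TFAM RNAi 5 (adjusted p = 0.0267) or control 2 (0.0236). The ratio of Hsp60A to CG11267 was 0.599 to 0.693 in TFAM RNAi libraries and 0.506 to 0.638 in control libraries. Its log2 difference was 0.20 (exact permutation p = 0.0152, adjusted 0.0404), and 0.15 without control 5 and control 8 (exact permutation p = 0.0667). The ratios of Hsc70-5 to Roe1 (log2 difference -0.08), of Hsc70-5 to its J-protein CG5504 (0.05), of Hsp60A to Hsc70-5 (0.08) and of ClpX to ClpP (0.04) did not pass, with exact permutation p of 0.238, 0.55, 0.346 and 0.768.

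**Figure D4:**
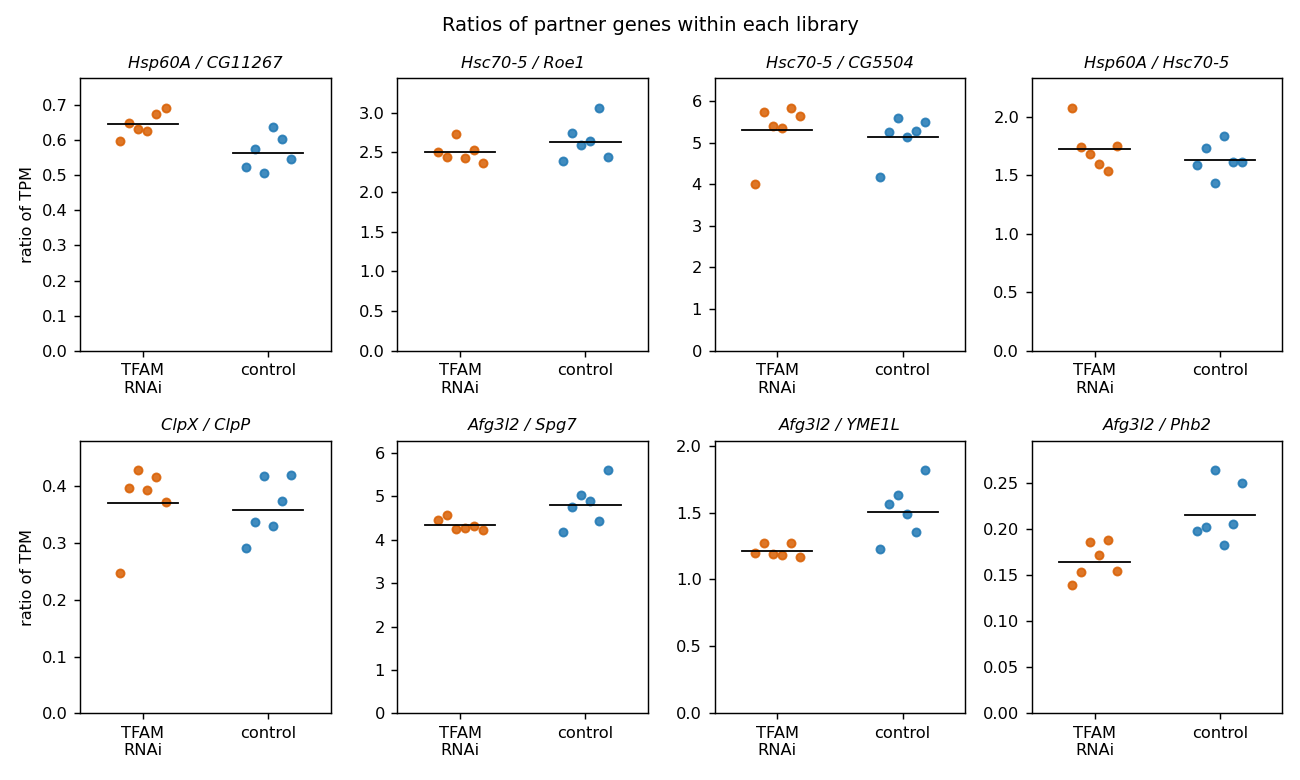
Ratio of TPM of a member to a partner gene in each of 6 TFAM RNAi (left, orange) and 6 control (right, blue) libraries; lines are group means. Afg3l2 over YME1L and over Phb2 is lower in TFAM RNAi libraries, and Hsp60A over CG11267 is higher (0.599 to 0.693 against 0.506 to 0.638).

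Of 15 other mitochondrial chaperones and proteases, all tested, 1 rose and 3 fell (median log2 fold change -0.11). Over all tested genes 5.75% were called higher and 13.8% lower, with a median of 0.01. rho-7, a rhomboid protease of the inner membrane, fell to 50.6 ± 3.25 TPM in TFAM RNAi libraries, against 82.6 ± 3.80 TPM in control libraries (SD, n = 6 each; log2 fold change -0.70, limma adjusted p = 2.64e-06), with no overlap. An antisense gene, CG34231, overlaps it in the annotation, and whether counting used strand was not given, so reads of the pair cannot be told apart. Bcs1, an ATPase that inserts the Rieske protein into complex III, rose to 14.6 ± 1.07 TPM in TFAM RNAi libraries, against 10.5 ± 0.435 TPM in control libraries (log2 fold change 0.45, limma adjusted p = 6.97e-04). Hsc20, the J-protein of iron-sulfur cluster assembly, fell to 10.1 TPM in TFAM RNAi libraries, against 13.4 TPM in control libraries (-0.38, limma adjusted p = 0.0114), and it overlaps l(3)72Dp on the same strand. The nmd gene, the fly homologue of the outer membrane ATPase Msp1, fell to 61.6 TPM in TFAM RNAi libraries, against 74.3 TPM in control libraries (-0.27, limma adjusted p = 0.00705), a call lost with quantile normalization (-0.02, adjusted p = 0.805) and with median-ratio scaling (0.0775).

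The other core matrix proteins of this list did not pass the test. ClpP had 84.3 ± 3.84 TPM in TFAM RNAi libraries and 84.6 ± 5.77 TPM in control libraries (SD, n = 6 each), with a 95% interval of -0.13 to 0.12 around a log2 fold change of 0.00. Lon, the ATP-dependent matrix protease, had 46.0 ± 10.1 TPM in TFAM RNAi libraries and 52.3 ± 9.53 TPM in control libraries (log2 fold change -0.20, limma adjusted p = 0.478). CG5504 had a log2 fold change of -0.12, and the prohibitins Phb1 and Phb2 of -0.11 and -0.04. The paralogues Hsp60B, Hsp60C and Hsp60D and the gene CG9920 had log2 fold changes of 0.74, 0.67, 0.42 and 0.71 and did not pass (limma adjusted p 0.287 to 0.421). Without the 4 libraries rich in other tissues' markers (TFAM RNAi 3 and 4, control 2 and 3), Hsp60B (1.15, limma adjusted p = 0.0416), Hsp60D (0.77, 0.0212) and CG9920 (1.197, 0.0377) were called higher, a setting chosen after seeing the data. Hsp60D was also called without control 2 (0.68, limma adjusted p = 0.0414). In all 12 libraries Hsp60C spanned 7.11 to 22.6 TPM in TFAM RNAi libraries and 2.65 to 21.8 TPM in control libraries. Gonad markers summed to 9.35 to 28.9 TPM in TFAM RNAi libraries and 15.5 to 44.3 TPM in control libraries, and their part was not tested.

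**Figure D5:**
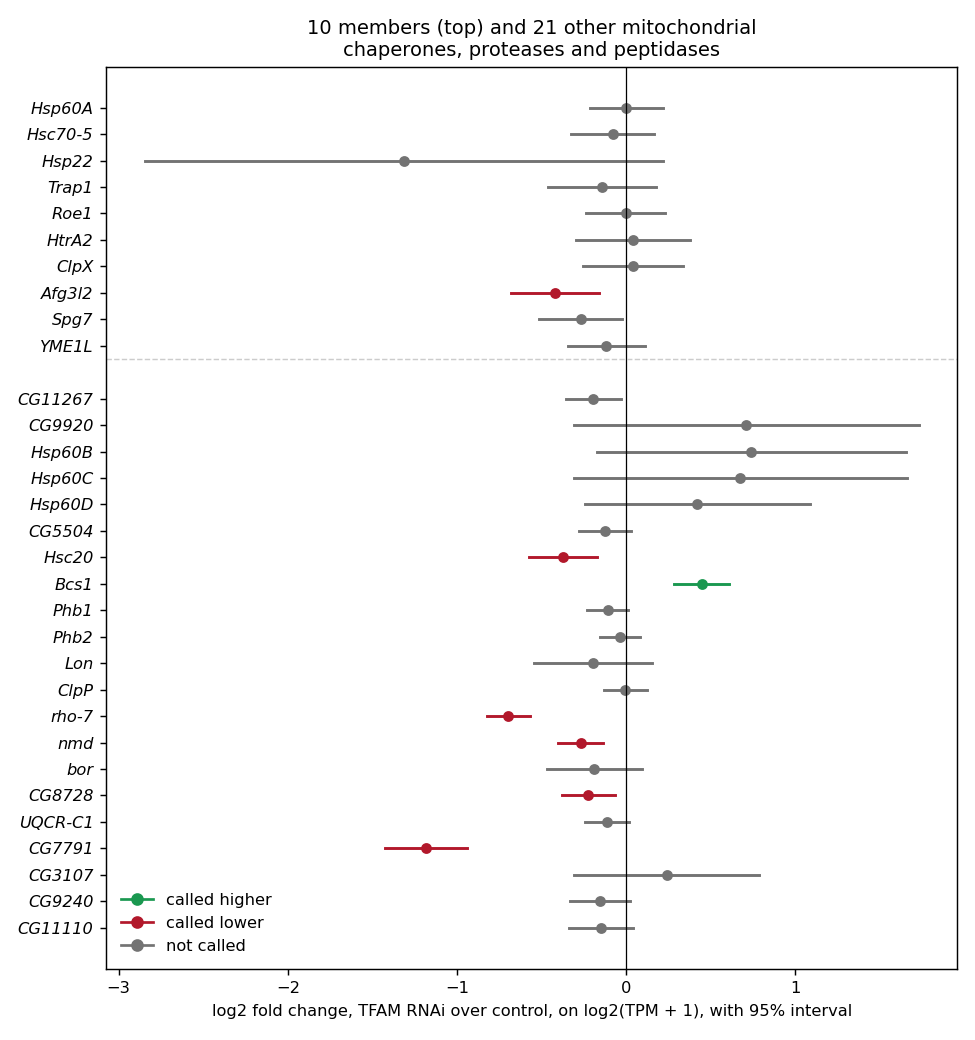
Log2 fold change, TFAM RNAi over control, with its 95% interval for the 10 members (above the dashed line) and 21 other mitochondrial chaperone, protease and peptidase genes (below it); green was called higher, red lower and grey not called. Of the members only Afg3l2 (-0.42) is coloured, and CG7791 (-1.18) and rho-7 (-0.70) lie furthest left among the called genes.

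Presequence and intermediate peptidases trim imported proteins before they fold. Of 6 such genes, 0 rose and 2 fell (median log2 fold change -0.15), beside 5.75% of all tested genes called higher and 13.8% lower. CG7791, with the synonym MIP in the reference table, fell to 18.2 ± 1.36 TPM in TFAM RNAi libraries, against 43.0 ± 7.78 TPM in control libraries (SD, n = 6 each; log2 fold change -1.18, limma adjusted p = 6.13e-06), and it overlaps CG34200 in the annotation. CG8728, with the synonym alpha-MPP, fell by 0.22 on the log2 scale (limma adjusted p = 0.0436), a call that 17 of 24 alternative settings ended. Reference genes for mitochondrial content, 8 in number, had 0 rises and 2 falls (median -0.12), beside the same background. Cytochrome c (Cyt-c-p) fell to 1605 TPM in TFAM RNAi libraries, against 2054 TPM in control libraries (-0.35, limma adjusted p = 0.00329; 0.137 with median-ratio scaling), and Idh3a, a subunit of the TCA cycle isocitrate dehydrogenase, fell by 0.53 (limma adjusted p = 0.0482), a call that 15 of 24 settings ended.

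Among cytosolic and nuclear heat-shock genes, 24 of 27 were tested, 0 rose and 1 fell (median log2 fold change -0.26). The background over all tested genes was 5.75% higher and 13.8% lower. The gene called lower was Hsp70Bbb, at 0.767 TPM in TFAM RNAi libraries and 27.1 TPM in control libraries (-2.80, limma adjusted p = 0.035). Its control mean rested on control 5 and control 8, and the log2 fold change was -1.46 without them (limma adjusted p = 0.0483); 10 of 24 settings ended the call. Small heat-shock genes near Hsp22 on the chromosome did not pass: log2 fold changes were -0.46 for Hsp23, -0.60 for Hsp26 and -0.33 for Hsp27 (limma adjusted p 0.393 to 0.627). Hsp83, the cytosolic Hsp90, and Hsc70-4, the constitutive cytosolic Hsp70, had log2 fold changes of -0.11 and -0.14 and did not pass either. One Hsp22 transcript had the same TPM in all 12 libraries as a transcript of its overlapping neighbour CG4456, whose synonym is Hsp67Bb, and this transcript was 14.9% of Hsp22 TPM in TFAM RNAi libraries and 11.3% in control libraries.

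Of 19 endoplasmic reticulum chaperones and stress sensors, 3 were called higher and 2 lower (median log2 fold change 0.13). Among all tested genes 5.75% were called higher and 13.8% lower (median 0.01). Protein disulfide isomerase (Pdi) rose to 3924 ± 359 TPM in TFAM RNAi libraries, against 2025 ± 430 TPM in control libraries (SD, n = 6 each; log2 fold change 0.98, limma adjusted p = 7.97e-05), with no overlap. The Hsp90 of the endoplasmic reticulum, Gp93, rose to 703 TPM in TFAM RNAi libraries, against 471 TPM in control libraries (0.61, limma adjusted p = 0.012). Xbp1, the transcription factor of the unfolded protein response of that compartment, fell to 197 TPM in TFAM RNAi libraries, against 248 TPM in control libraries (-0.33, limma adjusted p = 0.00544), a call lost with quantile normalization (-0.15, adjusted p = 0.191) and with median-ratio scaling (0.132). The Hsp70 of that compartment, Hsc70-3, had 945 ± 176 TPM in TFAM RNAi libraries and 651 ± 217 TPM in control libraries and did not pass (log2 fold change 0.57, limma adjusted p = 0.0731), but 6 of 24 settings called it higher, such as leaving out TFAM RNAi 3 (adjusted p = 0.0247), control 5 (0.0355) or control 8 (0.0214). Whether these genes differed from the mitochondrial chaperones was not tested.

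Regulators and read-outs linked to mitochondrial stress, 12 of 13 tested, had 0 rises and 1 fall (median log2 fold change -0.06). All tested genes had 5.75% called higher and 13.8% lower. The fall was ImpL2, an insulin-binding secreted protein, at 18.6 ± 10.5 TPM in TFAM RNAi libraries and 47.4 ± 13.5 TPM in control libraries (SD, n = 6 each; log2 fold change -1.44, limma adjusted p = 0.00805). The fly ATF4 gene crc had 368 TPM in TFAM RNAi libraries and 404 TPM in control libraries (-0.14, limma adjusted p = 0.142). The transcription factor foxo had 17.1 ± 6.05 TPM in TFAM RNAi libraries and 9.21 ± 3.66 TPM in control libraries (0.80, limma adjusted p = 0.0933), and 6 of 24 settings called it higher, among them both other scalings and leaving out TFAM RNAi 3 (1.05, adjusted p = 0.00514). The gene dve, whose C. elegans homologue takes part in the mitochondrial unfolded protein response, was below the filter, at 0.171 TPM in TFAM RNAi libraries and 0.166 TPM in control libraries.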

How the data were processed

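Per the labels' protocols, total RNA was extracted with Trizol and made into directional libraries. The authors deposited TPM per RefSeq transcript, with p-values and q-values of their own tests. The deposited Wald coefficients are natural log values: their slope on the group difference in log TPM was 0.999 over 1498 transcripts above 50 TPM. The submitters' processing notes name sleuth and give it no version. Quantifier, strand setting and genome build are not given in the sources used here, so no coordinates are printed. Depth cannot be recovered from TPM and is unknown.

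Transcripts were named by RefSeq accession (99.65% matched) and TPM summed to 17139 genes. The 9951 genes averaging 1 TPM or more over all libraries were tested with limma 3.58.1 in R 4.3.3 (lmFit, eBayes with trend) on log2(TPM + 1), group only, two-sided, with Benjamini-Hochberg adjustment and a threshold of 0.05. A fold change on this scale understates that of low genes. Values are means ± SD over 6 libraries. The fit was tried on simulated data with independent noise per gene and library, which held none of the composition differences of the real libraries. Lengths came from an Ensembl annotation and covered 99.87% of tested genes.

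The members, the lists and the tests were chosen with earlier results of these data known. The text names all members, the called genes of each list with up to the 3 smallest adjusted p, a set list of partners and regulators, and for Hsp22 and Hsp60A the 5 genes most like them with a mean of at least 5 TPM. The alternatives were other pseudocounts, filters, scalings, a replicate block, limma without trend, an exact permutation test and each library left out, and 3 more chosen after seeing the data. The block compared libraries of the same replicate number, so TFAM RNAi 4 and control 2, which have no partner, did not enter its fold changes.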

Additional observations from a re-analysis of the deposited data

Results flagged for a closer look

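Dixon's test for a sample far from the others, applied to 36 groups of 6 libraries (members and partner ratios), singled out 4 values, where chance gives about 1 group in 20. Roe1 was 99.1 TPM in TFAM RNAi 3, below the other 5 TFAM RNAi libraries. The ratio of Hsc70-5 to CG5504 was 4.01 in TFAM RNAi 3, and in control 2 it was 4.18, each the lowest of its group. The ratio of ClpX to ClpP was 0.247 in TFAM RNAi 3. TFAM RNAi 3 is the library with the most salivary gland marker RNA and control 2 the one with the most muscle marker RNA, and the part of either in these values was not tested.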

How the results depend on the processing

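No member was called higher under the alternatives tried. The count of members called lower, 1 in the main test, was 2 with median-ratio scaling (Spg7 added), 2 with a replicate block (Hsp22 added, log2 fold change -1.43, limma adjusted p = 0.014), 3 with the long-transcript index as covariate (18.7% of all genes lower), and 0 with quantile normalization, with the exact permutation test and without control 5 and control 8. With single libraries left out it was 0 to 1. Over all genes, calls of higher were 961 with quantile normalization (1075 lower, 47.2% of calls higher against 29.3%), 1342 with the block and 1163 without 4 libraries rich in other tissues' markers (TFAM RNAi 3 and 4, control 2 and 3). Of the genes of the 6 related lists, 4 were called higher and 11 lower in the main test, which called 5.75% of all tested genes higher and 13.8% lower. Those lists held 15, 6, 24, 19, 12 and 8 tested genes, with PEK in both the endoplasmic reticulum and the regulator list. Higher calls were 9 with quantile normalization, 9 with the block, 7 without control 5 and control 8, 9 without the 4 libraries, and 3 to 7 with single libraries left out. Over all genes these settings called 961, 1342, 569, 1163 and 474 to 798 higher, against 572 in the main test. Lower calls in the lists were 7 with quantile normalization, 25 with the index, 6 without the 4 libraries, and 7 to 13 with single libraries left out. Over all genes the same settings called 1075, 1859, 1052 and 1153 to 1426 lower, against 1377 in the main test. The cause of these shifts was not tested.

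Log2 fold changes near 0 changed sign without passing the threshold, except ClpP. Hsp60A was -0.0682 with the block, -0.0152 with the index, -0.0187 without control 5 and control 8 and -0.0379 without the 4 libraries. Quantile normalization gave 0.12 for Hsc70-5, 0.0921 for Trap1, 0.18 for Roe1, 0.12 for YME1L, 0.22 for ClpP (limma adjusted p = 0.0103), 0.0162 for Lon, 0.12 for CG5504, 0.0751 for Phb1, 0.13 for Phb2 and 0.06 for crc. Median-ratio scaling gave 0.006 for Roe1 and 0.0053 for ClpP. The index gave -0.0684 for HtrA2 and -0.10 for ClpX, and the block gave 0.051 for ClpP. Roe1 was 0.0616 without control 5 and control 8 and 0.0307 without the 4 libraries, where ClpP was 0.07 and Hsp83 0.0325. Leaving out single libraries gave -0.0681 to 0.0699 for Hsp60A, -0.14 to 0.0061 for Hsc70-5, -0.04 to 0.0824 for Roe1, -0.0296 to 0.11 for HtrA2, -0.0127 to 0.15 for ClpX, -0.0267 to 0.0276 for ClpP and -0.23 to 0.0631 for Hsp83.

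Replicate numbers are shared by 5 pairs of libraries, whose deviations from the group means correlated at 0.313, 0.616, -0.077, 0.047 and 0.035, so the numbers were not taken to pair the libraries. With the block Hsp60B, Hsp60C, Hsp60D and CG9920 were called higher (1.202, 1.11, 0.79 and 1.17, limma adjusted p 0.0137 to 0.0351). Over all 9951 genes the block called 1342 higher and 1168 lower, against 572 higher and 1377 lower in the main test. TFAM RNAi 4 and control 2 share no replicate number, so they did not enter the block's fold changes. Control 2 was the highest control for each of these genes, and TFAM RNAi 4 the lowest of its group for all but CG9920. Leaving out TFAM RNAi 4 and control 2 alone, without the block, was not run. TPM gives no depth, so the counting error of low members such as HtrA2 and Hsp22 is unknown.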

Other observations

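Hsp70Bb departed from the other Hsp70 copies and was chosen after its values were seen. It had 68.5 to 116 TPM in TFAM RNAi libraries, and in control libraries 184 TPM in control 5, 211 TPM in control 8 and 4.82 to 27.7 TPM in the other 4. Its log2 fold change was 1.42 (limma adjusted p = 0.277), and 2.71 without control 5 and control 8 (adjusted p = 3.33e-04). The other 5 Hsp70 genes summed to 11.5 to 101 TPM in TFAM RNAi libraries and 16.9 to 693 TPM in control libraries. How reads were divided among the near-identical copies is uncertain.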
